A study of Mus musculus with 12 samples.

Results

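The transcripts of 9 resident antioxidant enzymes were chosen by name, as the mitochondrial and constitutive scavengers of superoxide and peroxide: Sod1, Sod2, Cat, Gpx1, Gpx4, Prdx3, Prdx5, Txn2 and Txnrd2. Each gene was represented by its probeset with a single gene symbol and the highest mean over the arrays. This gave values for 8 of the 9 genes, all of which lay above the filter on dim genes and stood among 13308 genes tested. Prdx5 was not analysed here. The 8 genes had 1 such probeset each. The samples were gastrocnemius, a mostly fast-twitch calf muscle, of FVB mice aged 2 to 3 months and labelled male, on Affymetrix Mouse Gene 2.0 ST arrays. The 4 groups of 3 arrays were ERRα-null 2 h after treadmill running to exhaustion, wild type 2 h after the same run, sedentary ERRα-null and sedentary wild type, and the labels call the arrays of a group biological replicates. Esrra encodes ERRα, a nuclear receptor that drives mitochondrial and oxidative genes. How the null allele was made is not given in the sources used here.

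The respiratory chain leaks electrons to oxygen and forms superoxide, which superoxide dismutases turn into hydrogen peroxide. Sod2 encodes the manganese enzyme of the mitochondrial matrix, and Sod1 the copper and zinc enzyme of the cytosol and intermembrane space. The peroxide is removed by catalase (Cat), mostly in peroxisomes, by the glutathione peroxidases Gpx1 and Gpx4, of which Gpx4 also reduces lipid hydroperoxides in membranes, and by the peroxiredoxins. In the matrix Prdx3 is recharged by the thioredoxin Txn2, which the reductase Txnrd2 in turn reduces with NADPH. Gpx1, Gpx4 and Txnrd2 are selenoproteins.

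Promoter sequences are shown for Sod2, the 1 member that passed the test between genotypes, and for Prdx3 and Txn2, the other matrix members with the smallest unadjusted p for genotype averaged over both states. They come from RefSeq, assembly GRCm38.p6, and run 5′ to 3′ on the gene's strand from 250 bases before to 50 bases after the transcript start. Capitals mark GC boxes (GGGCGG) and the nuclear receptor hexamer (AGGTCA) in either orientation.
Sod2, chr17:13007589-13007888, plus strand: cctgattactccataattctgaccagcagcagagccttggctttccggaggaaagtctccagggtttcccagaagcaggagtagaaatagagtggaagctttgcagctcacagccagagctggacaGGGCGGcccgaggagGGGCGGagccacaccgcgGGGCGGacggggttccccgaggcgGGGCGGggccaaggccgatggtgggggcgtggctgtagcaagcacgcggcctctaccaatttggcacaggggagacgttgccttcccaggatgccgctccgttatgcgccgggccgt
Prdx3, chr19:60874489-60874788, minus strand: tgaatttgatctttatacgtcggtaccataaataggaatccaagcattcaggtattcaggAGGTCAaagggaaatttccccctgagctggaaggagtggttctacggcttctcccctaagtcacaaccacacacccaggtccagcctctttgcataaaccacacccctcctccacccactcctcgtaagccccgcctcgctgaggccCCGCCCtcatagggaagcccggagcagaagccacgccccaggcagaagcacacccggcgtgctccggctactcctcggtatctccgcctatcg
Txn2, chr15:77928945-77929244, minus strand: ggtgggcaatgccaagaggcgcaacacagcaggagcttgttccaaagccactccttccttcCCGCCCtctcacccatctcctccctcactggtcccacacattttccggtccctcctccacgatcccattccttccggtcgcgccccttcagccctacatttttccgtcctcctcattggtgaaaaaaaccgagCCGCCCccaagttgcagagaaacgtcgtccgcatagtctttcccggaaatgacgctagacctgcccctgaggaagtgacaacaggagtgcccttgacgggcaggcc
The Sod2 promoter held 4 GC boxes, starting 124, 109, 91 and 67 bases before the transcript start, and no hexamer. Prdx3 held 1 hexamer, 190 bases before the start, and 1 GC box. Txn2 held 2 GC boxes and no hexamer. All 9 genes matched the promoter table, with 12 promoters because Gpx4 has 4. The hexamer was found in 4 of the 12, those of Cat, Prdx3, Txnrd2 and 1 of Gpx4, and in 16.3% of all 32851 promoters of that length, non-coding genes included. The extended ERR element TNAAGGTCA, which contains the hexamer, was in 0 of the 12 and in 1.28% of all promoters. The GC box was in 11 of the 12 and in 35.7% of all. TGACNNNGC, the core of the NRF2 antioxidant response element, was in the Sod1 promoter and in 12.4% of all, and the NRF1 palindrome in 2 Gpx4 promoters and in 4.60% of all. These 2 Gpx4 promoters share 206 bases, so that the palindrome in both is 1 stretch of genome, and their 2 GC boxes are likewise the same. These matches describe letters in a window and not bound sites.

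Esrra fell to a log2 level of 6.58 to 6.85 on the exercised ERRα-null arrays, against 7.41 to 7.63 on the exercised wild-type arrays (−0.78 ± 0.11, SE of limma, adjusted p = 0.0227), and to 6.55 to 6.89 on the sedentary ERRα-null arrays, against 7.41 to 7.61 in sedentary wild type (−0.82 ± 0.11, adjusted p = 0.0238). Each of these calls was lost in 4 of the 6 fits without 1 array, and the averaged call (−0.80, adjusted p = 0.00121) in 0 of 12. Without the 3 arrays of high Xist all 3 calls of Esrra were lost (averaged adjusted p = 0.0581, after exercise 0.397, at rest 0.101). The call at rest was also lost with liver, adipocyte and B cell scores as covariates (adjusted p = 0.0543), and the call in each state on the 6 arrays of that state alone (0.0638 after exercise, 0.177 at rest). The source name label of sedentary ERRα-null and exercised wild type gives another exercise state than the title, which was followed. Ppargc1a, a coactivator induced by exercise, was at 11.38 to 12.15 on the 6 arrays titled post-exercise and at 9.36 to 10.16 on the 6 titled pre-exercise. The 10 skeletal muscle markers averaged 12.90 to 13.01 on every array. The 7 slow-fibre markers averaged 9.34 to 9.70 on the exercised ERRα-null arrays, against 9.05 to 9.76 in exercised wild type, and 9.41 to 9.97 on the sedentary ERRα-null arrays, against 8.87 to 9.54 in sedentary wild type. These ranges overlapped in both states, with the higher values at rest in ERRα-null, and the part of fibre type in the genotype differences of Sod2 and the other enzymes was not tested. Other tissues differed between arrays. The mean of 9 liver markers ran from 5.38 to 10.68, highest in sedentary wild type replicate 1. The adipocyte and B cell markers were raised on some sedentary arrays only. The highest adipocyte mean, 9.66, belonged to sedentary wild type replicate 3, and the highest B cell mean, 7.49, to sedentary ERRα-null replicate 1. Sedentary wild type replicate 3 also had a B cell mean of 6.42 and the lowest skeletal muscle mean, 12.90. Xist was at 7.82 to 7.90 in exercised ERRα-null replicates 2 and 3 and exercised wild type replicate 3, and at 3.66 to 4.30 on the other 9 arrays, so that these 3 arrays go against the label male. In whole muscle, fewer cells of a type and less transcript per cell cannot be told apart.

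After exercise, the null muscle held less Sod2 transcript than wild type, and the other measured enzymes did not pass the test. Sod2 was at log2 levels of 10.59, 10.68 and 10.72 in exercised ERRα-null muscle, against 11.19, 11.25 and 11.25 in exercised wild-type muscle. The groups were separated by more than the whole range of either. It fell to 0.676-fold of wild type (log2 −0.56 ± 0.09, SE of limma, 95% interval −0.75 to −0.38, adjusted p = 0.0227). Of the 8 members, 1 was called lower, where 0.286% of all genes tested were. The value was near the same without any 1 of the 6 exercised arrays (−0.59 to −0.53), but the call was lost in each of those fits (adjusted p from 0.0664 to 0.0904). Without the 3 arrays whose Xist level goes against the label, which leaves 1 exercised ERRα-null array assumed to vary like the other groups, it was −0.63 with an adjusted p of 0.382.

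In sedentary muscle Sod2 had a similar difference that did not pass. Its levels were 10.64, 10.80 and 10.84 in sedentary ERRα-null muscle, against 11.31, 11.35 and 11.02 in sedentary wild-type muscle. The genotypes did not overlap, and sedentary wild type replicate 3 was the lowest wild-type array of the study. That array also had the highest adipocyte marker mean, 9.66. With liver, adipocyte and B cell scores as covariates Sod2 differed at rest by −0.51 (adjusted p = 0.110 by limma). The difference was −0.47 ± 0.09 (95% interval −0.66 to −0.28, adjusted p = 0.0897 by limma). Of the 6 fits without 1 sedentary array it passed in 1, without sedentary wild type replicate 3 (−0.57, adjusted p = 0.0392). Over these 6 fits it ran from −0.57 to −0.40, with adjusted p up to 0.327. In the 9 alternatives other than leaving out 1 array it passed in 0. At rest 0 of the 8 members were called lower by limma, where 0.0301% of all genes were, and 2 members, Sod2 and Txn2, had an unadjusted p under 0.05, where 8.22% of all genes did. The effects of genotype in the 2 states were compared directly in the interaction, which was −0.10 ± 0.12 for Sod2 (95% interval −0.36 to 0.17, adjusted p = 0.999).

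Averaged over both states, Sod2 was at 0.700-fold in ERRα-null of its level in wild-type muscle (log2 −0.52 ± 0.06, 95% interval −0.65 to −0.38, adjusted p = 0.00272 by limma). All 6 ERRα-null arrays (10.59 to 10.84) lay below all 6 wild-type arrays (11.02 to 11.35). The average passed without each of the 12 arrays in turn, at −0.57 to −0.48, and with liver, adipocyte and B cell scores as covariates (−0.54, adjusted p = 0.0144). It did not pass without the 3 arrays whose Xist level goes against the label (−0.55, adjusted p = 0.0925). Again 1 of the 8 members was called lower, where 0.999% of all genes were.

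**Figure D1:**
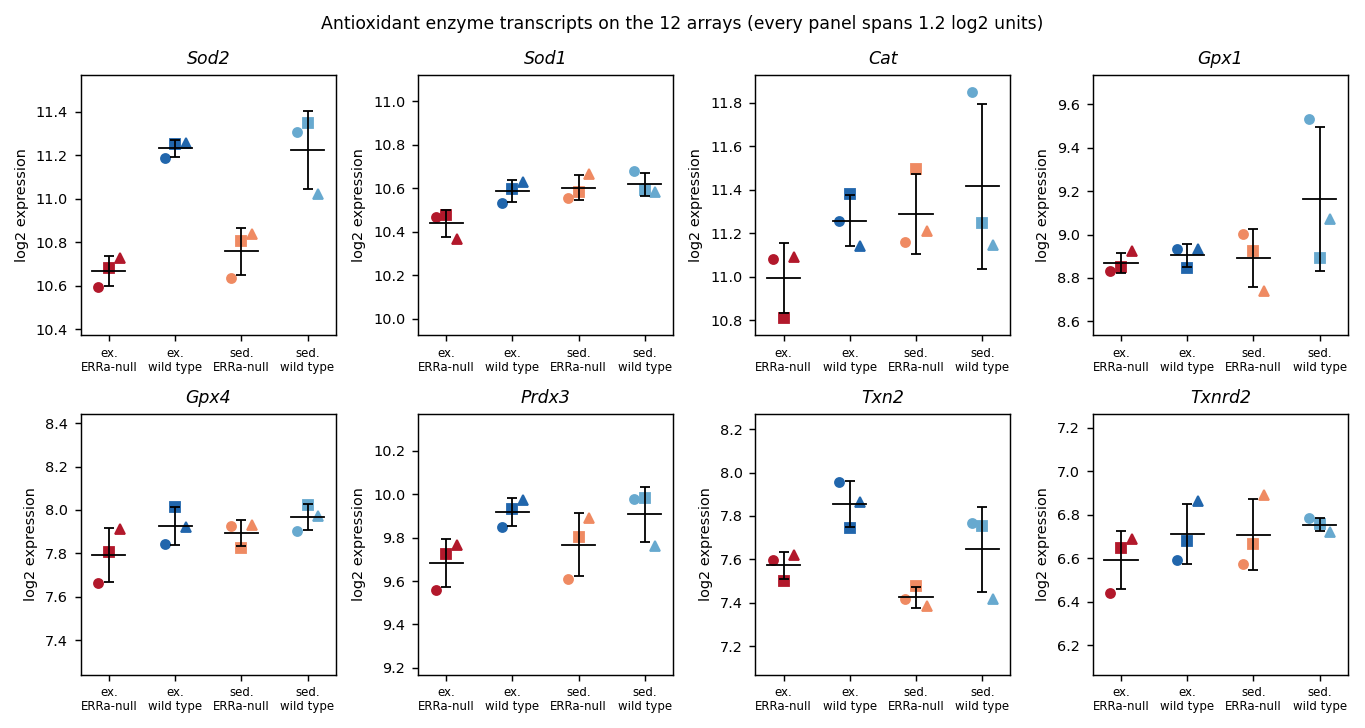
Log2 expression of the 8 measured antioxidant enzymes on each array, by group (ex., exercised; sed., sedentary), with circles, squares and triangles for replicates 1, 2 and 3 and the mean and SD (n = 3). Every panel spans the same log2 range, and only for Sod2 do all 6 ERRα-null arrays lie below all 6 wild-type arrays.

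All 8 members had a negative difference between ERRα-null and wild-type muscle in each state and in the average, where 49.6% of all genes tested did after exercise, 50.4% at rest and 49.8% in the average. The median of the 8 differences was −0.19 after exercise, −0.13 at rest and −0.17 in the average, beside medians over all genes within 0.0013 of 0. After exercise the genotypes did not overlap, with ERRα-null lower, for 5 of the 8 members (Sod1, Sod2, Cat, Prdx3 and Txn2), where they did not for 9.31% of all genes. At rest this held for Sod2 alone, where it did for 6.53%. The members were chosen with earlier results of these data known, so that these shares describe the members and are not a test. Apart from Sod2 the genotype differences were small and did not pass, as the following values show.

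Sod1 was at 10.47, 10.48 and 10.37 in exercised ERRα-null muscle, against 10.53, 10.60 and 10.63 in exercised wild-type muscle. The groups did not overlap, but the difference was −0.15 ± 0.06 (95% interval −0.28 to −0.02, adjusted p = 0.404 by limma). At rest Sod1 was at 10.56, 10.58 and 10.67 in ERRα-null muscle, against 10.68, 10.59 and 10.58 in wild-type muscle, a difference of −0.015 (95% interval −0.15 to 0.11). Both enzymes dismutate superoxide, and in the average over states the difference was −0.08 ± 0.04 for cytosolic Sod1 (95% interval −0.17 to 0.01) beside −0.52 ± 0.06 for mitochondrial Sod2. The intervals of Sod1 and Sod2 did not meet. The difference between the 2 genes was not tested.

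In the matrix peroxidase system all 3 members had negative differences that did not pass. Txn2, the mitochondrial thioredoxin, was at 7.60, 7.50 and 7.62 in exercised ERRα-null muscle, against 7.96, 7.75 and 7.86 in exercised wild-type muscle. It did not overlap there (−0.28 ± 0.10, adjusted p = 0.309 by limma). At rest it was at 7.42, 7.48 and 7.38 in ERRα-null muscle, against 7.77, 7.75 and 7.42 in wild-type muscle, where replicate 3 lay within the ERRα-null range (−0.22 ± 0.10, adjusted p = 0.599). Averaged over states Txn2 differed by −0.25 ± 0.07 (95% interval −0.41 to −0.10, adjusted p = 0.116), the second largest of the 8 values, and it passed only without sedentary wild type replicate 3 (−0.31, adjusted p = 0.0230).

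Prdx3, the matrix peroxiredoxin that Txn2 recharges, was at 9.56, 9.73 and 9.76 in exercised ERRα-null muscle, against 9.85, 9.93 and 9.98 in exercised wild-type muscle. These groups were apart as well (−0.24 ± 0.09, adjusted p = 0.382 by limma). At rest it was at 9.61, 9.80 and 9.89 in ERRα-null muscle, against 9.98, 9.98 and 9.76 in wild-type muscle, and the groups overlapped. Its averaged difference was −0.19 ± 0.06 (95% interval −0.33 to −0.05, adjusted p = 0.228). Txnrd2, the selenoprotein reductase of Txn2, was at 6.44, 6.65 and 6.69 in exercised ERRα-null muscle, against 6.59, 6.68 and 6.86 in exercised wild-type muscle, and at 6.57, 6.66 and 6.89 in sedentary ERRα-null muscle, against 6.78, 6.76 and 6.72 in sedentary wild-type muscle. The groups overlapped in both states, and the averaged difference was −0.08 (95% interval −0.25 to 0.08).

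**Figure D2:**
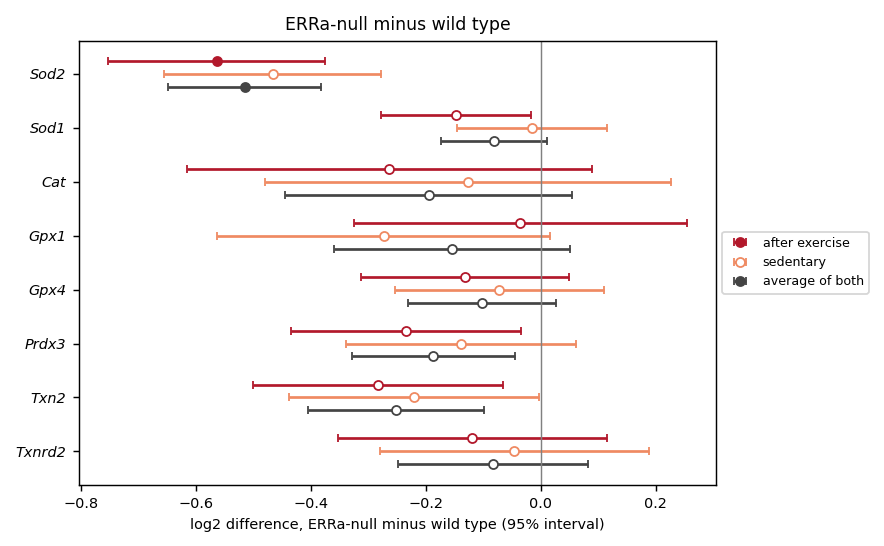
Log2 difference of ERRα-null minus wild type for the 8 enzymes, after exercise, in sedentary mice and averaged, with the 95% interval of limma and filled points for an adjusted p under 0.05. All points lie left of 0, and the filled ones are Sod2 after exercise (−0.56) and in the average (−0.52).

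Catalase had the largest SE of the 8 members, and it was highest on the 2 arrays with the most liver transcript. Cat was at 11.08, 10.81 and 11.09 in exercised ERRα-null muscle, against 11.26, 11.38 and 11.14 in exercised wild-type muscle, a narrow gap between groups that did not pass (−0.26 ± 0.16, 95% interval −0.62 to 0.09, adjusted p = 0.664 by limma). At rest it was at 11.16, 11.50 and 11.21 in ERRα-null muscle, against 11.85, 11.25 and 11.15 in wild-type muscle. The highest value, 11.85, belonged to sedentary wild type replicate 1 and the next, 11.50, to sedentary ERRα-null replicate 2, whose liver marker means of 10.68 and 8.96 were also the highest and the next. Without sedentary wild type replicate 1 the genotype difference at rest was 0.09, and with it −0.13 ± 0.16.

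Gpx1, the abundant selenium-dependent glutathione peroxidase, was also highest on that array. It was at 8.83, 8.85 and 8.92 in exercised ERRα-null muscle, against 8.93, 8.84 and 8.93 in exercised wild-type muscle, and the groups overlapped (−0.04, 95% interval −0.33 to 0.25). At rest it was at 9.002, 8.93 and 8.74 in ERRα-null muscle, against 9.53, 8.89 and 9.07 in wild-type muscle, where 9.53 in sedentary wild type replicate 1 stood above all 11 other arrays. The difference at rest of −0.27 ± 0.13 did not pass (adjusted p = 0.637 by limma), and without that array it was −0.09. Neither Cat nor Gpx1 passed in any comparison, with or without liver, adipocyte and B cell scores as covariates. Over the 9 alternatives other than leaving out 1 array, these scores among them, Cat at rest differed by −0.15 to −0.11. Gpx1 at rest differed by −0.28 to −0.26 in the same fits. Sod2 was at 11.31 on sedentary wild type replicate 1 and at 11.35 on sedentary wild type replicate 2, whose liver mean was 7.36. These arrays also differed in their adipocyte means (6.75 and 8.83) and B cell means (4.91 and 6.67). The part of liver tissue alone in Sod2 was not tested.

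Gpx4, the peroxidase of membrane lipid hydroperoxides, was at 7.66, 7.81 and 7.91 in exercised ERRα-null muscle, against 7.84, 8.01 and 7.92 in exercised wild-type muscle. At rest it was at 7.92, 7.83 and 7.93 in ERRα-null muscle, against 7.90, 8.02 and 7.97 in wild-type muscle. The groups overlapped in both states, and the averaged difference was −0.10 (95% interval −0.23 to 0.03).

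**Figure D3:**
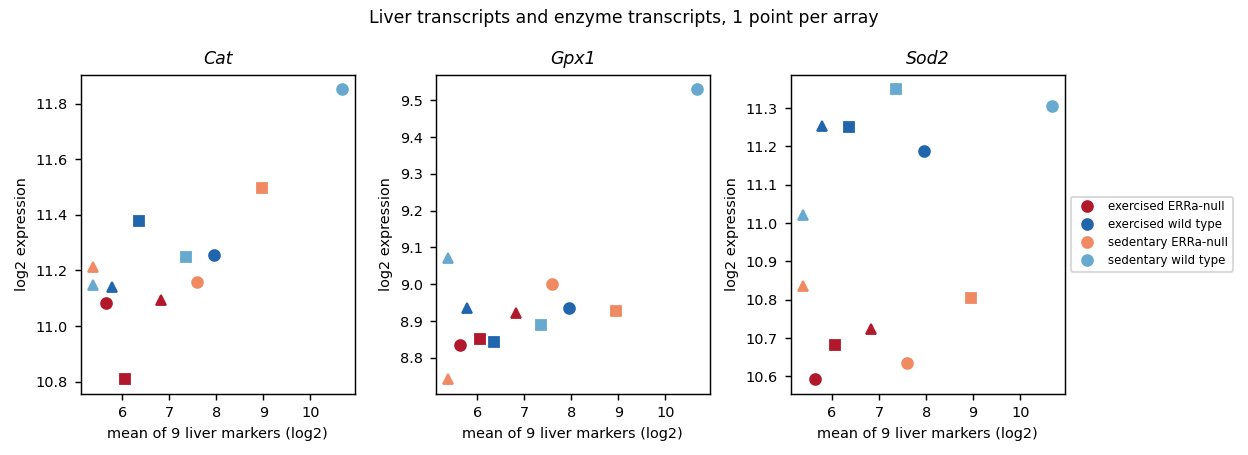
Log2 expression of Cat, Gpx1 and Sod2 against the mean log2 level of 9 liver markers, 1 point per array, coloured by group, with circles, squares and triangles for replicates 1, 2 and 3. Sedentary wild type replicate 1, at a liver mean of 10.68, has the highest Cat and Gpx1 of the 12 arrays, and not the highest Sod2.

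Acute exercise changed none of the 8 members past the threshold in either genotype. By limma 0 were called in ERRα-null muscle, where 0.639% of all genes were, and 0 in wild-type muscle, where 3.43% were. At an unadjusted p under 0.05 there was 1 member in ERRα-null muscle (Sod1), where 13.1% of all genes passed it, and 0 in wild-type muscle, where 16.1% did. Sod2 differed by −0.09 between exercised and sedentary ERRα-null muscle (95% interval −0.28 to 0.10) and by 0.0057 between exercised and sedentary wild-type muscle (95% interval −0.18 to 0.19). Between exercised and sedentary ERRα-null muscle 2 members, Sod1 and Cat, did not overlap and were lower, where 10% of all genes did, and 1, Txn2, did not overlap and was higher, where 8.99% did. Txn2 alone had positive values in both genotypes, with 0.15 ± 0.10 in ERRα-null muscle and 0.21 ± 0.10 in wild-type muscle. Sod1 differed by −0.16 ± 0.06 in ERRα-null muscle (adjusted p = 0.263 by limma) and by −0.03 in wild-type muscle. The interaction of genotype and exercise passed for 0 of the 8 members by limma, where 0.00751% of all genes were called, with 0 at an unadjusted p under 0.05, where 5.12% of all genes lay. Averaged over genotypes, 0 were called, where 6.57% of all genes were, and Sod1 (−0.10) and Txn2 (0.18) had an unadjusted p under 0.05, a share of the members near the 22.5% of all genes.

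**Figure D4:**
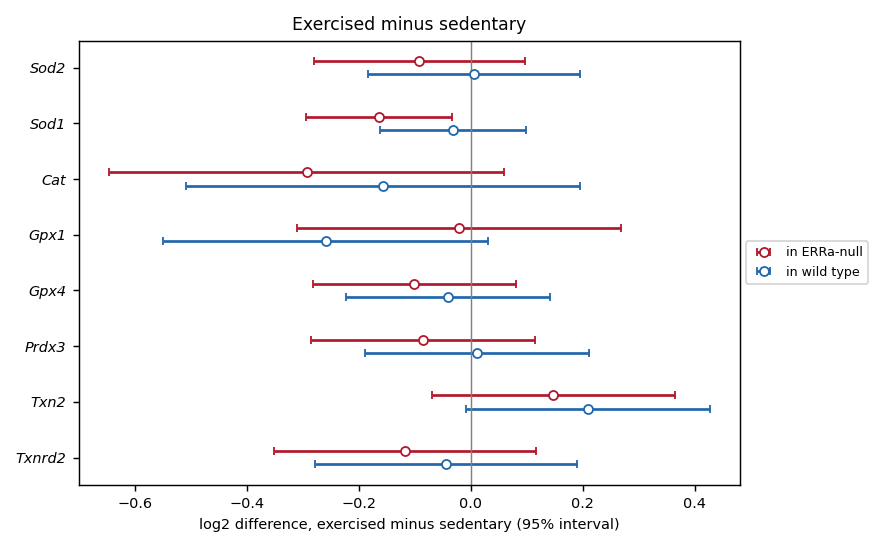
Log2 difference of exercised minus sedentary muscle for the 8 enzymes in each genotype, with the 95% interval of limma and hollow points for an adjusted p of 0.05 or more. All points are hollow, Txn2 lies right of 0 in both genotypes (0.15 in ERRα-null, 0.21 in wild type), and Sod2 in wild type lies at 0.0057.

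Enzymes around these members were followed in 5 lists chosen by function. Of the isoenzymes outside the matrix 8 of 11 were tested, of the glutathione, thioredoxin and NADPH supply 15 of 16, of metal and selenium handling 11 of 12, of repair of oxidised protein and lipid 10 of 10, and of regulators 15 of 15, Esrra among them. Between genotypes, 0 genes of the first 4 lists were called after exercise or at rest by limma. Of all genes, 0.286% were called lower after exercise and 0.0301% at rest. After exercise the smallest p-values of the supply list belonged to Srxn1, Glrx, Gclm and Glrx5, at −0.65, −0.75, −0.57 and −0.41, with adjusted p from 0.0512 to 0.102. Their list had a median of −0.09 with 11 of 15 below 0, beside a median of 0.0013 over all genes.

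Averaged over states, 3 genes of the lists besides Esrra were called lower in ERRα-null muscle, where 0.999% of all genes were. They were 2 of the 15 tested of the supply list and 1 of the 11 of metal and selenium handling. Glrx5, a mitochondrial glutaredoxin of iron-sulfur cluster assembly, was at 8.58, 8.74 and 8.76 in exercised ERRα-null muscle, against 9.11, 9.06 and 9.14 in exercised wild type, and at 8.65, 8.85 and 8.97 in sedentary ERRα-null muscle, against 9.21, 9.25 and 8.98 in sedentary wild type. The genotypes did not overlap in either state (average −0.37 ± 0.07, adjusted p = 0.0242 by limma). Glrx, the cytosolic glutaredoxin (−0.54 ± 0.11, adjusted p = 0.0404), and Slc39a14, a zinc, iron and manganese importer (−0.46 ± 0.09, adjusted p = 0.0281), fell as well. Each of the 3 lost the call in at least 7 of the 12 fits that leave out 1 array, and without the 3 arrays of high Xist. Glrx also lost it with liver, adipocyte and B cell scores as covariates and after the median of all genes was subtracted. Without the intensity trend, or without the filter on dim genes, Glrx lost it too.

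Some partners of these enzymes rose after exercise. Srxn1, the sulfiredoxin that repairs overoxidised peroxiredoxins, was at 8.67, 8.99 and 8.54 in exercised ERRα-null muscle, against 7.46, 7.30 and 7.45 in sedentary ERRα-null muscle (2.51-fold, log2 1.33 ± 0.12, adjusted p = 0.000470 by limma). In wild type it was at 9.57, 9.22 and 9.37 after exercise, against 7.47, 7.35 and 7.23 at rest (4.11-fold, log2 2.04 ± 0.12, adjusted p = 4.73e-06). Every exercised ERRα-null array lay below every exercised wild-type array. The interaction was −0.71 ± 0.18 and did not pass (unadjusted p = 0.00164, adjusted p = 0.603).

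Txnrd1, the cytosolic counterpart of Txnrd2, was at 9.47, 9.63 and 9.54 in exercised ERRα-null muscle, against 8.98, 9.08 and 9.22 in sedentary ERRα-null muscle (0.45 ± 0.10, adjusted p = 0.0759 by limma). In wild type it rose, with 10.16, 10.00 and 9.98 after exercise, against 9.30, 9.36 and 9.01 at rest (0.82 ± 0.10, adjusted p = 0.000647). This call was lost with liver, adipocyte and B cell scores as covariates (adjusted p = 0.0582). Its interaction was −0.37 ± 0.14 (adjusted p = 0.948). The mitochondrial reductase Txnrd2 had values of −0.12 in ERRα-null and −0.04 in wild-type muscle for the same comparison.

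Of the 15 regulators, 3 were called for exercise in wild type, where 3.43% of all genes were, and 1 in ERRα-null muscle, where 0.639% were. Averaged over genotypes 4 were called, where 6.57% of all genes were. Ppargc1a rose 3.02-fold in ERRα-null muscle (log2 1.59 ± 0.12, adjusted p = 0.000128 by limma) and 5.68-fold in wild-type muscle (log2 2.51 ± 0.12, adjusted p = 7.08e-07). Its interaction was −0.91 ± 0.17 and did not pass (adjusted p = 0.329). The levels of Ppargc1a were also set beside the exercise titles above, so that its rise and that check are the same observation. Nfe2l2, which encodes the stress factor NRF2, rose in wild type (0.71 ± 0.14, adjusted p = 0.0190), as did Foxo1, a forkhead factor of fasting and stress (0.90 ± 0.16, adjusted p = 0.0107). In ERRα-null muscle Nfe2l2 was at 0.12 and Foxo1 at 0.08, neither of which passed, and the interactions of −0.60 and −0.82 did not pass either (adjusted p = 0.910 and 0.748). Foxo1 lost its call with the mean of its probesets and without the 3 arrays of high Xist. Both genes lost it with the scores of other tissues. Nfe2l2 also lost it without sedentary wild type replicate 3 and without exercised wild type replicate 1 or 2. With the replicate number as a block on the wild-type arrays alone, Nfe2l2 lost it as well. Averaged over genotypes, Sirt1, a deacetylase, rose by 0.30 ± 0.08 (adjusted p = 0.0361). This call was lost in 7 of the 12 fits without 1 array, and without the 3 arrays of high Xist. It was also lost with the scores of other tissues as covariates, with the replicate number as a block on all arrays, and without the filter on dim genes.

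All 10 genes of the repair list, which also holds glutathione transferases, had a negative exercise difference in wild type. Their median was −0.12, beside −0.0089 over all genes. Of these, 2 were called in wild type by limma, where 3.43% of all genes were in either direction. Gsta4, a glutathione transferase for lipid aldehydes, fell (−0.57 ± 0.13, adjusted p = 0.0326), as did Msrb2, a mitochondrial methionine sulfoxide reductase (−0.42 ± 0.09, adjusted p = 0.0297). In ERRα-null muscle 0 of the list were called, where 0.639% of all genes were, and the values of Gsta4 and Msrb2 were −0.26 and −0.32. The wild-type calls were lost in 4 of the 6 fits without 1 array for Gsta4 and in 5 for Msrb2. Both were also lost without the 3 arrays of high Xist, and with liver, adipocyte and B cell scores as covariates. On the wild-type arrays alone they were lost too, with or without the replicate number as a block. Averaged over genotypes Mgst1, a membrane glutathione transferase abundant in liver, fell too (−0.66 ± 0.13, adjusted p = 0.0123), with its highest level, 8.94, in sedentary wild type replicate 1. With Gsta4 and Msrb2, 3 of the 10 were called in this average, where 6.57% of all genes were in either direction. All 3 averaged calls were lost with the scores of other tissues as covariates, and without the 3 arrays of high Xist. Sepsecs, an enzyme of selenocysteine synthesis, fell by 0.30 in the same average (adjusted p = 0.0301). This call was lost in 8 of the 12 fits without 1 array, without the 3 arrays of high Xist, and with the scores of other tissues as covariates.

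The 5 tested genes with the highest Pearson correlation with Sod2 over the 12 arrays all encode mitochondrial enzymes of energy metabolism. They were Cox4i1 of cytochrome c oxidase (r = 0.988), Pdha1 of pyruvate dehydrogenase (0.985), Fh1, the fumarase (0.979), Suclg1 of succinyl-CoA ligase (0.979) and Ndufa4 (0.974). After exercise their differences between ERRα-null and wild-type muscle ran from −0.66 to −0.46, and at rest from −0.55 to −0.33. These genes were picked by correlation over arrays of both genotypes, so that their genotype differences follow in part from the choice. The arrays share genotype and tissue, and these values describe likeness only. Suclg1, for example, averaged 9.04 ± 0.14 in exercised ERRα-null muscle and 9.54 ± 0.04 in exercised wild-type muscle, and 9.15 ± 0.15 in sedentary ERRα-null muscle and 9.54 ± 0.12 in sedentary wild-type muscle (SD, n = 3 each). Of these 5, Suclg1, Fh1, Pdha1 and Ndufa4 matched the promoter table, and their 4 promoters held 0 extended ERR elements. The other members followed Sod2 less closely, with Prdx3 (r = 0.882) and Txn2 (0.720) nearest and Gpx1 (0.371) farthest.

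**Figure D5:**
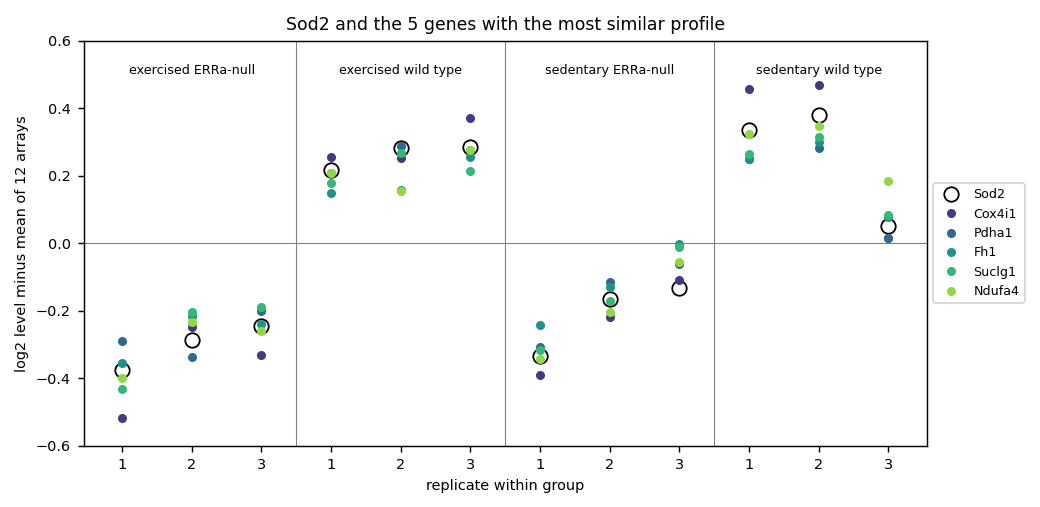
Log2 level minus the mean of the 12 arrays for Sod2 (open circles) and the 5 genes most correlated with it, by group and replicate. ERRα-null arrays lie below 0 and wild-type arrays above, and sedentary wild type replicate 3 is the lowest wild-type array for Sod2.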

How the data were processed

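The deposited table holds log2 expression values of 41345 probesets on 12 arrays, made and deposited by the authors. The submitters' processing notes name RMA, Transcriptome Analysis Console and Affymetrix Expression Console, without the role of each. No version or genome build is named in the sources used here. RMA usually forces the arrays onto a common distribution, so differences are relative to the bulk of transcripts. The platform table names 23521 probesets with 1 symbol, and 23328 of these matched RefSeq. Of the 22180 genes, the 40% with the lowest mean were not tested. Group means were fitted to all 12 arrays with limma 3.58.1 in R 4.3.3 (8 residual degrees of freedom, eBayes with an intensity trend), all tests were two-sided, and the Benjamini-Hochberg adjustment ran over 13308 genes in each of 7 comparisons, with a call at an adjusted p under 0.05. Values after ± are SE unless SD is written. The fit was tested on simulated data. Arrays have no read depth, and their number limits the precision. No pair of arrays was identical (Pearson r from 0.970 to 0.987).

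The members and lists were chosen with earlier results of these data known. All members were named, as were the called genes of each list and otherwise at most 4 with the smallest p. Deviations from group means of equally numbered arrays correlated at 0.17 to 0.31 between the exercised genotypes, and those of unequally numbered arrays at −0.22 to 0.027. Between exercised and sedentary wild type these ranges were 0.063 to 0.27 and −0.21 to 0.10. In the other comparisons of single states, equally numbered arrays had values on both sides of 0. These correlations alone do not establish that the numbers pair the arrays. The reported tests carry no replicate block, which was run as an alternative.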

Additional observations from a re-analysis of the deposited data

How the results depend on the processing

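The call of Sod2 after exercise was lost, leaving 0 members called, without the intensity trend (−0.56, adjusted p = 0.0556), without the 3 arrays whose sex profile goes against the label (−0.63, adjusted p = 0.382) and without each exercised array in turn (0 to 0 members, with values of −0.59 to −0.53). The average was lost only without those 3 arrays (−0.55, 0 members), and leaving out 1 array gave 1 to 2 members, or 0 to 1 at rest. With the replicate number as a block on all arrays, Sod2 had an adjusted p of 0.0479 after exercise, 0.00783 in the average and 0.128 at rest. The block on exercised arrays alone gave 0.0178, and the block changed no call of a member. Counts over all genes moved more: 50 genes were called between genotypes after exercise, against 73 with the block on exercised arrays, 23 with the block on all arrays and 5 on exercised arrays alone. For exercise in ERRα-null muscle the block on those arrays called 0 genes against 85, with an adjusted p of 0.0872 for Srxn1 and 0.0786 for Ppargc1a. Deviations of equally numbered arrays correlated there at −0.15 to 0.041. Among uncalled members 24 values changed sign. Sod1 at rest was 0.0013 after the median was subtracted. In wild type, exercise gave −0.018 for Prdx3 and −0.0060 for Sod2 without the 3 arrays, and −0.20 and −0.14 with tissue scores. Leaving out 1 array gave, between genotypes at rest, −0.26 to 0.091 for Cat, −0.048 to 0.016 for Sod1 and −0.14 to 0.022 for Txnrd2. For exercise in wild type it gave −0.29 to 0.061 for Cat, −0.062 to 0.048 for Prdx3, −0.097 to 0.068 for Sod2, −0.084 to 0.0016 for Gpx4 and −0.12 to 0.016 for Txnrd2, and in ERRα-null −0.10 to 0.035 for Gpx1. For the interaction it gave −0.16 to 0.0048 for Sod2, −0.12 to 0.052 for Txn2, −0.14 to 0.018 for Txnrd2 and −0.12 to 0.0055 for Gpx4. Of 25 calls in the lists, 4 held in every alternative, those of Ppargc1a and Srxn1 in wild type and averaged. The small number of arrays limits all of these values.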

Other observations

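Idh2, which supplies NADPH in mitochondria, had opposite values in the 2 states. It differed by −0.09 between ERRα-null and wild-type muscle after exercise (adjusted p = 0.923 by limma) and by 0.30 at rest (adjusted p = 0.601), and the interaction of −0.40 ± 0.19 did not pass (adjusted p = 0.994). Gpx8, an endoplasmic reticulum peroxidase, had 0.19 after exercise and −0.20 at rest, and neither passed (adjusted p = 0.819 and 0.816). Nnt, the transhydrogenase that makes mitochondrial NADPH, was at −0.04 after exercise and 0.11 at rest.

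The plasma selenoprotein Gpx3 and the red cell peroxiredoxin Prdx2 had averaged genotype differences of −0.09 and −0.12 (adjusted p = 0.840 and 0.395). Neutrophil markers averaged 5.57 in exercised wild type replicate 2, where no other array exceeded 4.37. Sod2 on that array was at 11.25, as in replicate 3.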
